A study of Mus musculus with 15 samples.

Results

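The transcripts of 9 transcription factor genes of the naive stem cell state, Esrrb, Nr5a2, Tfcp2l1, Zfp42, Nanog, Klf4, Klf5, Tbx3 and Pou5f1, were followed through 3 lists of SAM68 binding sites. The genes were chosen by name, with earlier results of these data known. A site was counted when its entry carried the Ensembl gene ID of any of these genes, which gave 9 of the 7949 gene IDs in the lists. Together they held 176 of 29740 sites on day 0, 12 of 28266 on day 3 and 9 of 74287 on day 10. SAM68 (Khdrbs1) is a STAR-family protein that binds RNA, and iCLIP2 reads the nucleotide at which it was crosslinked to RNA by ultraviolet light.

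All samples came from E14 mouse embryonic stem cells, with 5 libraries labelled for each day and SAM68 recovered with the same polyclonal antibody. Day 0 cells were feeder-free stem cells kept on gelatin in serum with leukemia inhibitory factor and inhibitors of GSK3 and MEK. Day 3 cells were embryoid bodies from hanging drops and day 10 cells were embryoid bodies grown in spheroid microplates, both in medium with 10% serum. Embryoid bodies are aggregates in which stem cells differentiate, and they were dissociated to single cells before crosslinking. Day and culture format therefore cannot be told apart. The deposited lists hold 1 set of called sites per day, with no value for a single library, so no difference below has a replicate check. Days were compared through intervals that cover counting error only, which set 1 list against another and do not test the conditions. RNA abundance was not measured in these lists, so fewer cells with a transcript, less of it per cell and less binding per molecule cannot be told apart.

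In the naive state, stem cells are held by a circuit of transcription factors that activate each other's genes and respond to LIF and Wnt signals. Esrrb, Nr5a2, Tfcp2l1, the Krüppel-like factors Klf4 and Klf5, and Tbx3 are known as parts of this circuit, Nanog and Pou5f1 belong to its core, and Zfp42, also called Rex1, is a classical marker of the state. On differentiation the circuit is dismantled, while Pou5f1 is known to stay active in the primed state that follows.

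The 9 genes held 59.2, 4.25 and 1.21 sites per 10000 sites of the list on day 0, day 3 and day 10. The summed share on day 3 was thus 0.0717 times that of day 0, and the share on day 10 was 0.0205 times that of day 0, although the day 10 list was 2.50 times as long. All 9 genes had a site on day 0, 6 had one on day 3 and 3 had one on day 10. The share of 8 of the 9 genes was lower on day 3 than on day 0, and that of all 9 was lower on day 10 than on day 0. Pou5f1 was the exception on day 3, with 2 sites against 1 on day 0. These counts of direction take no account of counting error and include Klf4 and Pou5f1, with at most 2 sites on any day. The same count was not made over all genes.

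**Figure D1:**
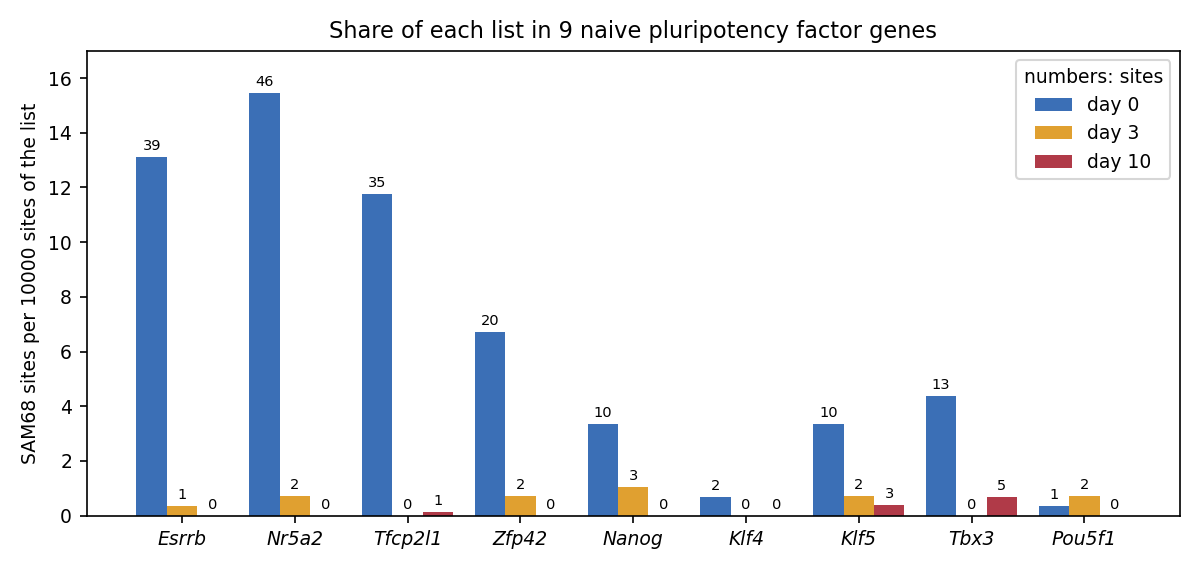
Bars give the number of SAM68 sites in each gene per 10000 sites of that day's list (vertical axis) for day 0, day 3 and day 10, and the number above each bar is the plain number of sites. The day 0 bar is the tallest for every gene but Pou5f1, and the 3 genes with a site on day 10 are Tfcp2l1, Klf5 and Tbx3.

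The bases under a site could be read for 2 of the member sites, those that fell inside the stretch around a transcription start that RefSeq sequence for GRCm38.p6 covers. They are shown because they are the member sites nearest to a RefSeq start, 1 on day 0 and 1 on day 3, both in genes of the core factors. Each run is 30 bases of the sense strand, 5′ to 3′, with the 5 nt site in capitals.
Nanog, day 0, chr6:122707579-122707608, plus strand: gagccgttggccTTCAGataggctgatttg
Pou5f1, day 3, chr17:35506048-35506077, plus strand: taggtgagccgtCTTTCcaccaggcccccg
The Nanog site was centred 0.104 kb after the RefSeq start that opens the gene span and 28 nt after a second start, at position 122707565. The Pou5f1 site was centred 30 nt after the start of its gene span. Neither run holds TAAA, a core of known SAM68 motifs, or TTAAA, which contains it. Searched on the sense strand only, TAAA stood in 31 of the 296 sites of all genes that could be read in this way (10.5%) and in 9.57% of all 30-base stretches of these start regions. For TTAAA the shares were 7.09% and 3.09%.

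The nuclear receptors held the most sites. Nr5a2, which encodes the orphan receptor LRH-1 (ENSMUSG00000026398, chromosome 1, 136842562 to 136960448, minus strand), held 46 sites on day 0, 2 on day 3 and none on day 10. Its share on day 3 was 0.0457 times that of day 0, with an exact 95% interval of 0.00538 to 0.175. Such an interval compares a gene's sites divided by list length and treats sites as independent, which neighbouring sites of a gene are not. A gene is said to hold a smaller or larger share where this interval excludes 1. Esrrb, an orphan receptor related to the oestrogen receptors (ENSMUSG00000021255, chromosome 12, 86361117 to 86521628, plus strand), had 39 sites in the day 0 list, 1 in the day 3 list and none in the day 10 list. Its day 3 share was 0.0270 times that of day 0 (0.000666 to 0.159). For day 10 against day 0 the intervals of both receptors lay below 1, with upper ends of 0.0334 for Nr5a2 and 0.0397 for Esrrb.

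Tfcp2l1, a factor of the CP2 family (ENSMUSG00000026380, chromosome 1, 118627923 to 118685168, plus strand), held 35 sites on day 0, none on day 3 and 1 on day 10. Its day 10 share was 0.0114 times that of day 0 (0.000282 to 0.0681). Zfp42, a zinc finger protein (ENSMUSG00000051176, chromosome 8, 43295067 to 43307009, minus strand), held 20, 2 and 0 sites, and its day 3 share was 0.105 times that of day 0 (0.0119 to 0.433). With sites closer than 500 nt merged, the Zfp42 interval for day 3 reached 1.27 and the call was lost.

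Nanog, a homeodomain factor (ENSMUSG00000012396, chromosome 6, 122707489 to 122714633, plus strand), held 10, 3 and 0 sites. The day 3 share was 0.316 times that of day 0, with an interval of 0.0558 to 1.23 that includes 1, and the interval for day 10 against day 0 ended at 0.179. Nanog was also the only one of the 9 genes to hold a smaller share on day 10 than on day 3 (upper end 0.921), and that call rested on 3 sites and was lost under 7 of the 9 alternative settings. Merging sites closer than 50 nt brought the day 3 share of Nanog to 0.208 times that of day 0 (0.0222 to 0.978), because neighbouring day 3 sites then counted once.

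Among the Krüppel-like factors, Klf5 (ENSMUSG00000005148, chromosome 14, 99298691 to 99313412, plus strand) had 10 sites in the day 0 list, 2 in the day 3 list and 3 in the day 10 list. Its day 3 share was 0.210 times that of day 0 (0.0224 to 0.987), a call that ended with a 99% interval (upper end 1.41) or with neighbouring sites merged. Its day 10 share was 0.120 times that of day 0 (0.0212 to 0.466). Klf4 (ENSMUSG00000003032, chromosome 4, 55527137 to 55532475, minus strand) held 2 sites on day 0 and none later, too few for a call. Tbx3, a T-box factor that also acts in heart and endoderm (ENSMUSG00000018604, chromosome 5, 119670534 to 119684724, plus strand), held 13 sites on day 0, none on day 3 and 5 on day 10, the most of the 9 genes on that day. The Tbx3 share on day 10 was 0.154 times that of day 0 (0.0430 to 0.460). Compared as plain site numbers without scaling, the day 10 to day 0 intervals of Klf5 and Tbx3 reached 1.17 and 1.15. Pou5f1, the POU factor Oct4 (ENSMUSG00000024406, chromosome 17, 35506032 to 35510777, plus strand), held 1, 2 and 0 sites, and all of its intervals included 1.

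For day 3 against day 0, 6 of the 9 genes thus held a smaller share and none a larger one. Over all 6346 genes listed on one or both of these days, 4.3% held a smaller share and 3.84% a larger one. For day 10 against day 0, 7 of the 9 held a smaller share and none a larger one, beside 10.5% and 7.33% of 7451 genes. For day 10 against day 3, 1 of the 8 genes with a site held a smaller share and none a larger one, beside 8.58% and 5.62% of 7299 genes. The members were chosen with earlier results of these data known, so these counts beside all genes are a description. Genes with many sites are called more easily. A filter on day 0 sites also favours genes that are lower on later days, for the members and for the 773 genes below alike. Of the 7 members with at least 10 sites on day 0, 6 held a smaller share on day 3 and 7 on day 10, against 27.4% and 50.1% of the 773 genes of the series with that many sites. No site at all was left in 2 of the 7 on day 3 (Tfcp2l1 and Tbx3), where 5.82% of the 773 genes had none. On day 10, 4 of the 7 had none (Esrrb, Nr5a2, Zfp42 and Nanog), where 8.93% of the 773 had none. The median log2 ratio of the members was -2.90 for day 3 over day 0 and -3.98 for day 10 over day 0, beside 0.04 and 0.12 over all genes, with a pseudocount of 1 site per mean list length.

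The 9 genes differ widely in length, and sites were therefore also compared with those of protein-coding genes of like span (1.5 times shorter to 1.5 times longer) that had a site on the same day. On day 0, Zfp42 ranked highest, with 20 sites in 11.9 kb, where 1 of 660 such genes had as many or more and the median was 2. Nanog, with 10 sites in 7.15 kb, was matched or exceeded by 6 of 368 genes of like span (median 1). Nr5a2, Tfcp2l1 and Tbx3 each had more sites than 97.0%, 98.0% and 97.8% of such genes, and Klf5 and Esrrb more than 95.6% and 94.8%. Klf4 and Pou5f1, with 2 and 1 sites where the median was 2 for both, lay at or below it. On day 3, Nanog had more sites than 73.3% of genes of like span, Zfp42 than 50.3% and Esrrb than none. On day 10, Tbx3 still had more sites than 75.8% of genes of like span and Klf5 more than 56.1%, so that both lay in the ordinary range of bound genes of their size.

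**Figure D2:**
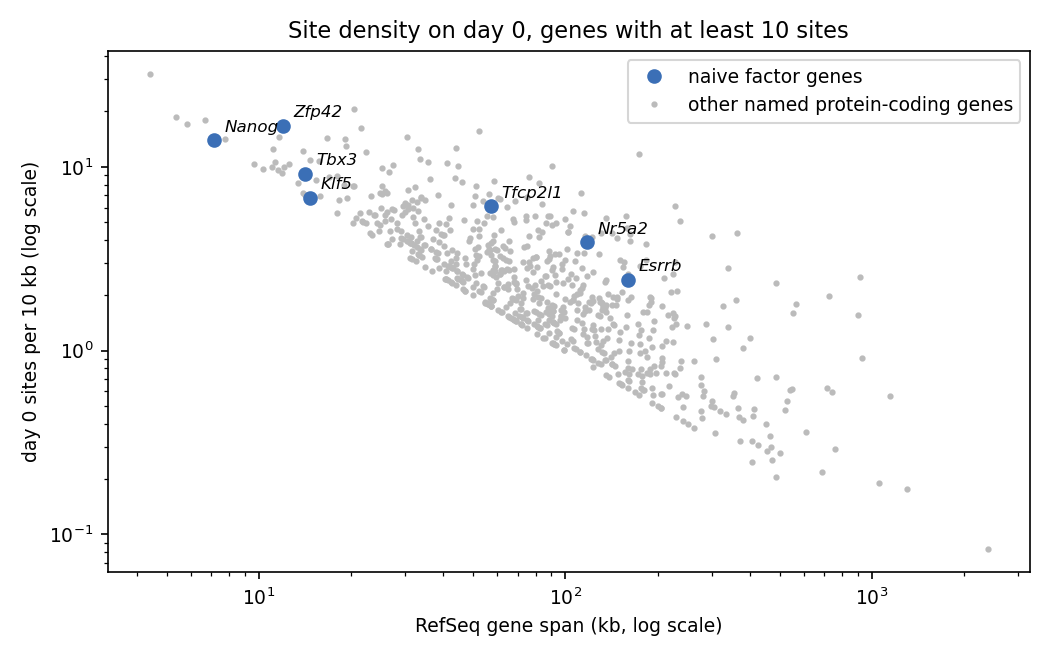
Each point is a named protein-coding gene with at least 10 sites on day 0, placed by its RefSeq span (horizontal axis, kb, log scale) and its day 0 sites per 10 kb of span (vertical axis, log scale). The lower edge of the cloud is the minimum of 10 sites, on which Nanog and Klf5 lie, while Zfp42, with 16.7 sites per 10 kb, Tfcp2l1, with 6.11, and Nr5a2, with 3.90, lie above it.

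Along the genes, the day 0 sites followed different layouts. Positions are given as a percent of the RefSeq span from its 5′ end, and exons and introns were not assigned here. In Esrrb, all 39 sites lay between 69.9% and 99.9% of the span, a stretch of 48.1 kb. RefSeq gives Esrrb a second start inside the gene, at position 86421644, and the first site lay 51.7 kb after it and 112 kb after the first start. In Nr5a2 the sites ran from 15.6% to 98.7% of the span, with a gap of 22.4 kb between neighbouring listed sites in the middle of the gene. By the site numbers in the entries, 11 numbered sites that are not in the list lie within that gap. Tfcp2l1 was covered from 1.93% to 93.2%, Zfp42 from 4.26% to 99.5% and Nanog from 1.46% to 94.6%. Sites of 1 gene were mostly well apart, with median gaps of 445 nt (Nanog) to 922 nt (Nr5a2) among the 7 members with at least 10 sites. Over all 773 genes with that many sites the median of the median gaps was 1462 nt. Gaps under 50 nt made up 7 of 166 in the members (4.22%) and 4.88% in all such genes.

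**Figure D3:**
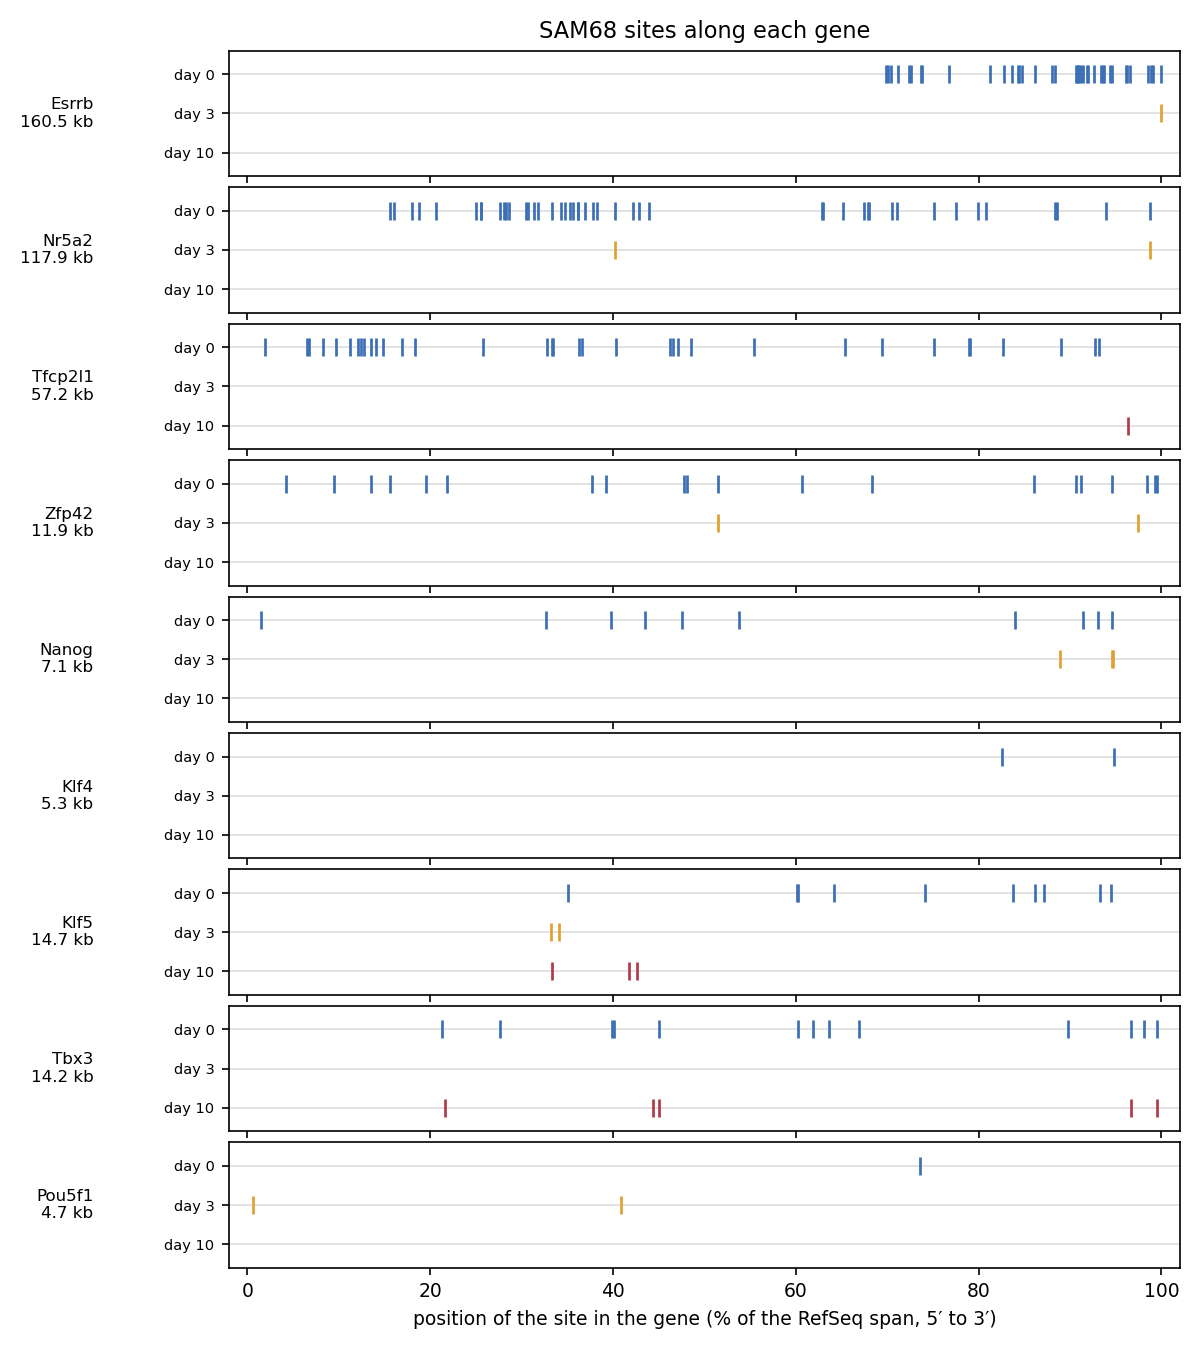
Ticks mark the SAM68 sites of day 0, day 3 and day 10 (rows within a panel) in each gene, at their position in percent of the RefSeq span from 5′ to 3′ (horizontal axis), with the span in kb beside the name. Day 0 ticks cover most of Nr5a2, Tfcp2l1, Zfp42 and Nanog and the last part of Esrrb, the later ticks of Nanog lie near its 3′ end, and those of Klf5 lie between 33.3% and 42.6%.

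What was left on day 3 lay in part at positions already bound on day 0. Of the 12 member sites of day 3, 5 overlapped a day 0 site by at least 1 nt on the same strand, 41.7% with an exact binomial interval of 15.2% to 72.3%, beside 18.3% of all day 3 sites. The interval of 15.2% to 72.3% includes the share of all day 3 sites. With all 5 nt required it was 2 of 12 (16.7%), beside 8.52% of all. The sets are unlike, because every member gene had a day 0 site. All day 3 sites include those of genes without one, which could not overlap. Seen from day 0, 5 of the 176 member sites overlapped a day 3 site by at least 1 nt (2.84%), beside 17.4% of all day 0 sites. With 12 member sites on day 3, few of the 176 could overlap one. This low share therefore repeats the fall in site number and is no separate result about positions. The single Esrrb site of day 3, centred at 86521487 and 141 nt from the 3′ end of the gene, had exactly the position of the most 3′ of the 39 day 0 sites. Both Nr5a2 sites of day 3 recurred, at 136844044, again the most 3′ day 0 site and at the same position, and at 136913023, shifted by 3 nt. In Zfp42 the site at 43300861 lay 2 nt from a day 0 site. In Nanog all 3 day 3 sites lay between 88.9% and 94.7% of the span, within 0.41 kb, and the one at 122714247 lay 1 nt from a day 0 site.

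The sites of day 10 were of 3 kinds. In Tbx3, with none listed on day 3, all 5 lay within 100 nt of a day 0 site, and those at 119676927 and 119684661 overlapped one with a shift of 1 nt each. Of the 13 day 0 sites of Tbx3, 4 had a day 10 site within 100 nt and the other 9 lay 190 to 3098 nt from the nearest one. In Klf5 the 3 day 10 sites and the 2 day 3 sites lay between 33.3% and 42.6% of the span, where 1 of the 10 day 0 sites lay, at 35.1%. None of these 5 later Klf5 sites overlapped a day 0 site, and the day 10 site at 99303605 lay 16 nt from the day 3 site at 99303589. In Tfcp2l1 the single day 10 site, at 118683106 and 96.4% of the span, lay beyond the last day 0 site. Taken over the 9 genes, 2 of the 9 day 10 sites overlapped a day 0 site (22.2%, interval 2.81% to 60.0%). Among all day 10 sites, which include those of genes without a day 0 site, 9.68% did so, a value that this interval includes. Seen from day 0, 2 of the 176 member sites overlapped a day 10 site (1.14%), beside 24.1% of all day 0 sites. With 9 member sites on day 10, few of the 176 could overlap one, so this share too repeats the fall in site number. No member site of day 10 overlapped one of day 3 (0 of 9, interval 0% to 33.6%), beside 9.90% of all day 10 sites. Klf5 was the only member with sites on both of these days, so no overlap was possible in the others. No position in the 9 genes was thus listed on all 3 days.

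The share of sites within 1000 nt of the 3′ end was 8.52% on day 0 (15 of 176, interval 4.85% to 13.7%), 41.7% on day 3 (5 of 12, 15.2% to 72.3%) and 22.2% on day 10 (2 of 9, 2.81% to 60.0%). For all named protein-coding genes it was 5.92%, 6.35% and 4.54%. Gene length moves with this share. Among genes of up to 20 kb the members had 14 of 56 sites there on day 0, 4 of 9 on day 3 and 2 of 8 on day 10. All such genes had 24.3%, 26.7% and 27.2%, and the exact binomial interval of the members included that value on each day.

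The entries also carry a site number, and within each day these numbers run in order of chromosome, strand and position. They reach 70573, 69714 and 137163 on day 0, day 3 and day 10, so 42.1%, 40.5% and 54.2% of the numbered sites are in the lists. What removed the others is not given in the sources used here, beyond the removal of sites in overlapping genes that the file headers name. Between the first and last listed day 0 site of each of the 9 genes, 176 of 263 numbers were listed (66.9%). For the 7 members with at least 10 sites the share was 66.5%, and for all 773 such genes it was 58.4%. The numbers on either side of a gene bound what may be unlisted in it. For Tfcp2l1 on day 3 the flanking listed sites have the consecutive numbers 1268 and 1269, so no numbered site lay in the gene on its strand. On day 10 at most 2 unlisted numbers could lie in Nanog, 3 in Nr5a2, 5 in Esrrb and 6 in Zfp42, and at most 6 in Tbx3 on day 3. Other bounds were wider, at 37 for Zfp42 on day 3 and at 12 on day 3 and 10 on day 10 for Klf5. For Klf4, whose neighbouring listed sites are far away, the bounds were 11 on day 3 and 13 on day 10.

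Other genes of the pluripotency network were listed on all 3 days. Of 24 such genes, 16 had a site on any day and 8 had none in their span, among them Sox2 and Klf2. The 16 held 33.6, 31.8 and 19.5 sites per 10000 on day 0, day 3 and day 10. This gene list and the primed-state, marker and family lists below were also chosen with earlier results of these data known. Their counts beside all genes are therefore a description. For day 3 against day 0, 1 of 16 held a smaller share, beside 4.3% of all genes. It was Fbxo15, an early pluripotency marker gene, with 15, 0 and 0 sites. For day 10 against day 0, 4 of the 12 with a site held a smaller share, beside 10.5% of all genes. They were Fbxo15, Tcf7l1, Tdgf1 and Fgf4, and the median log2 ratio of the 12 was -1.31. Tdgf1, a coreceptor of Nodal with 4, 5 and 0 sites, and Fgf4, a growth factor with 3, 1 and 0 sites, are named for their calls after their values were seen. Genes of the LIF pathway had sites on day 10. The receptor chains Lifr and Il6st held 2, 2 and 19 and 3, 2 and 8 sites, and the effector Stat3 held 3, 0 and 12. The Lifr and Il6st intervals included 1 in every comparison, and Stat3 held a larger share on day 10 than on day 3 (lower end 1.06). Tcf7l1, a repressor that acts against the naive circuit, held most of the sites of these 16 genes on each day, 64 of 100 on day 0, 70 of 90 on day 3 and 101 of 145 on day 10.

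Genes of the primed state, which follows the naive one, were without a site on day 0. Of 8 genes 7 had a site on any day, with sums of 0, 57 and 14. For day 3 against day 0, 3 of the 7 held a larger share, Fgf5 (0, 19 and 0 sites), Dnmt3b (0, 20 and 0) and Otx2 (0, 6 and 0), where 3.84% of all genes did. Otx2, with fewer than 10 sites, is named for its call. For day 10 against day 3, 6 of the 7 primed-state genes held a smaller share, where 8.58% of all genes did. The exception was Dnmt3a, with 0, 1 and 13 sites. Of 14 germ layer and heart markers, 5 had a site, all 5 had none on day 0, and Gata4 held 111 and Gata6 33 of the 148 sites of day 10.

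**Figure D4:**
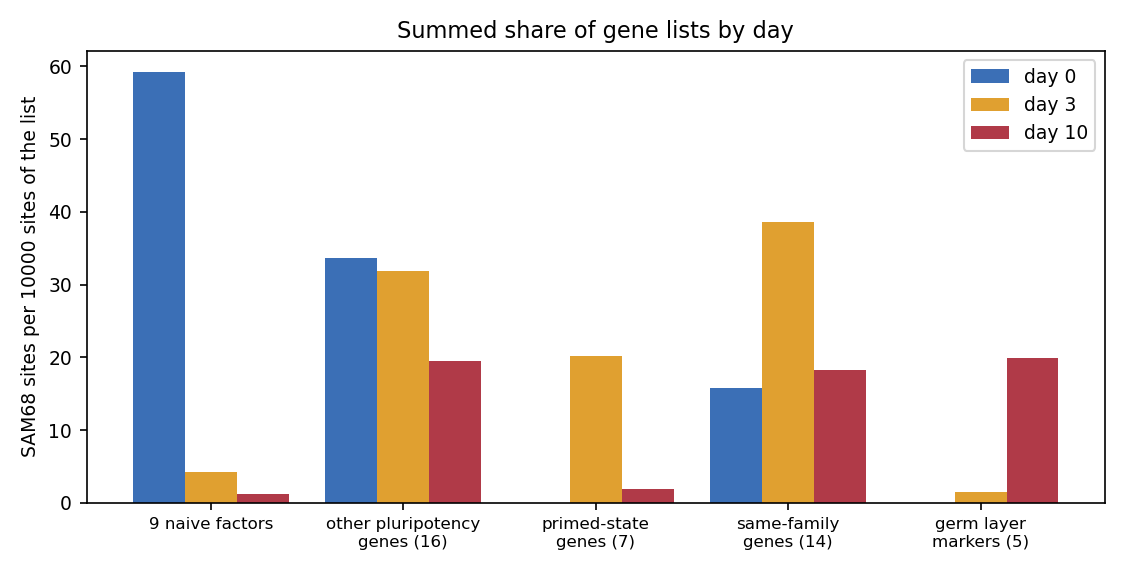
Bars give the summed number of SAM68 sites of each gene list per 10000 sites of that day's list (vertical axis) on day 0, day 3 and day 10, with the number of genes that had a site in parentheses. The 9 naive factors stand at 59.2, 4.25 and 1.21, the other pluripotency genes at 33.6, 31.8 and 19.5, and the primed-state genes at 0, 20.2 and 1.88.

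Relatives from the same gene families were listed on every day. Of 17 relatives, 14 had a site, and together they had 15.8, 38.6 and 18.3 sites per 10000. For day 3 against day 0, 1 of the 10 with a site held a smaller share and 1 a larger one, beside 4.3% and 3.84% of all genes. The same counts held for day 10 against day 0, among 13, beside 10.5% and 7.33% of all genes. With so few genes called, these counts do not set the relatives apart from all genes. For day 10 against day 3, 4 of 14 held a smaller share and 1 a larger one, beside 8.58% and 5.62% of all genes. Klf3, a Krüppel-like repressor, held 16, 5 and 15 sites and was the only relative with a smaller share both on day 3 (0.329 times day 0, 0.0942 to 0.939) and on day 10 (0.375 times, 0.173 to 0.811). Klf12, another Krüppel-like repressor, held 2, 50 and 12 sites, a day 3 share 26.3 times that of day 0 (6.91 to 223). Klf6, Klf7 and Klf13 held 1, 4 and 9, 0, 1 and 10, and 3, 8 and 1 sites. Tbx20, a T-box factor of the heart, held 46 sites on day 10 and none before. Pou2f1, the widely expressed POU factor Oct1, held 18, 26 and 26 sites. Yy1, the zinc finger protein to which Zfp42 is related, held 6, 7 and 6. For both genes the intervals against day 0 included 1, while Pou2f1 held a smaller share on day 10 than on day 3 (0.380 times, 0.212 to 0.682).

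The genes whose split over the 3 days was closest to that of the 9 factors together were sought among 1653 named genes with at least 20 sites. The measure was the summed absolute difference between the splits of list-scaled shares, which for the 9 factors were 91.6%, 6.57% and 1.87% on day 0, day 3 and day 10. The closest was Sh3gl2, an endophilin of endocytosis, with 57, 5 and 1 sites and a difference of 0.0365. It was followed by Triml1 with 18, 2 and 0 sites, Mcf2 with 23, 1 and 0, Bclaf3 with 41, 5 and 3 and Cobl, an actin nucleator, with 140, 4 and 1. Over 3 lists such likeness is a description.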

How the data were processed

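SAM68 iCLIP2 was done in 15 libraries, 5 per day. The submitters' processing notes name STAR 2.7.11a, SAMtools 1.22.1, bedtools 2.31.1, UMI-tools 1.1.6, MultiQC 1.31 and FastQC 0.12.1, with GRCh38.p14 and GRCm38.p5 as builds. How sites were called and libraries joined is not given in the sources used here. Each day has a deposited list of 5 nt sites, and per the file headers sites in overlapping genes had been removed. Every deposited score is 0 and was not used. Crosslink counts and depth are unknown, so a gene without sites has no floor.

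Gene IDs were named by position from RefSeq spans of GRCm38.p6 that held at least 80% of their sites, 7518 of 7949 (94.6%). Coordinates count from 1 at the centre of a site. Share ratios have exact conditional binomial 95% intervals, over 3 pairs of days. These were tried on simulated counts drawn independently, which cannot show how they behave when neighbouring sites depend on each other. The alternatives were other list lengths, a 99% interval, merged neighbouring sites, sites by position and other overlaps. All 9 genes, list genes with at least 10 sites and the 5 genes of most similar pattern are named. Otx2, Tdgf1 and Fgf4 have fewer sites and are named for their calls, and Sox2 and Klf2 as genes without a site. The genes and lists were chosen with earlier results of these data known. Python 3.11.15, NumPy 2.4.6, pandas 2.3.3, SciPy 1.17.1 and matplotlib 3.10.9 were used.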

Additional observations from a re-analysis of the deposited data

How the results depend on the processing

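The number of the 9 genes with a smaller share was between 5 and 7 of 9 for day 10 over day 0 and between 4 and 7 for day 3 over day 0 under the 9 alternatives, so the direction held there. For day 10 over day 3 the single call, Nanog, gave way to 0 under 7 alternatives: the number of bound genes as list length, no scaling, a 99% interval, sites merged within 50 nt or 500 nt, and, both chosen after seeing the data, the highest site number as list length and all numbered sites between the first and last listed one. Sites in protein-coding genes as list length and sites taken by position left it at 1. With all 5 nt required, 0% of day 10 member sites recurred from day 0, and for day 3 against day 0 the share was 16.7%, where 41.7% overlapped by at least 1 nt. Of the defined ratios of single genes, 201 kept their side of the threshold, 13 lost a call, 2 gained one and none reversed. The share of all genes with a smaller share for day 10 over day 0 was 10.5% and ran from 3.44% without scaling to 11.4% with all numbered sites. The settings with 10 nt and 50 nt around a site were not run, because no genome sequence was used here. No paired analysis was possible because each list joins the 5 libraries of a day, and for the same reason no library could be left out. Depth is unknown, and Klf4 and Pou5f1, with at most 2 sites on any day, were open in every comparison they entered.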
